A study of Sus scrofa with 32 samples.

Results

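PRDM1, XBP1 and IRF4 were taken as 3 of the 25880 genes counted in single cells of the pig ileum and blood. They were chosen by symbol, for the role their products are known to have in plasma cells, and with earlier results of these data known. Each symbol belonged to 1 gene of the count matrices. On the Sscrofa11.1 assembly, in RefSeq's gene table, PRDM1 (ENSSSCG00000004369) lies on chromosome 1 from 72309096 to 72335474, XBP1 (ENSSSCG00000030996) on chromosome 14 from 46011239 to 46016526, and IRF4 (ENSSSCG00000033381) on chromosome 7 from 133358 to 149609. In the cells kept here, XBP1 gave 18863 unique molecular identifiers (UMIs, 1 per captured RNA molecule) in 11370 cells, PRDM1 gave 4466 in 3481 cells, and IRF4 gave 2728 in 2117 cells.

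As background, the change of a B cell into an antibody-secreting plasma cell is driven by a small set of transcription factors. IRF4 acts by dose, with modest amounts in activated B cells and large amounts in plasma cells, and it also acts with BATF in T cells. PRDM1 encodes BLIMP1, a repressor that shuts down genes of the B cell program such as PAX5 and CIITA, and that is also made by effector and tissue-resident T cells. XBP1 encodes a factor of the unfolded protein response, whose active form is made after its RNA is spliced by IRE1 (gene ERN1), and which turns on chaperones and secretory machinery of the endoplasmic reticulum (ER). The 3′ tags counted here do not tell spliced from unspliced XBP1. JCHAIN encodes the joining chain of secreted polymeric IgA and IgM, and CD3E a subunit of the T cell receptor complex.

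The data came from 2 mixed-breed pigs, 7 weeks old, with no treatment given in the labels. Each pig gave 4 libraries, 3 of the distal ileum and 1 of peripheral blood mononuclear cells (PBMCs). The ileal dissections were Peyer's patch tissue (PP), tissue free of patches (non-PP), and a piece of whole ileum holding both. Ileal suspensions held epithelium, lamina propria and submucosa together and were enriched for live lymphocytes, so that shares of cells are not those of the tissue. Per the study's methods, ileal tissue was digested with enzymes, while PBMCs were isolated from blood in cell preparation tubes. Tissue and way of isolation thus cannot be told apart in any comparison of ileum and blood. Pig 1 is labeled female and pig 2 male. Sex and pig cannot be told apart, and each group holds 2 pigs. The library labeled whole ileum of pig 1 went against its label, because its summed level of 4 Y-linked genes was 207 CPM (counts scaled to a fixed library total), against 0 to 0.224 CPM in the other 3 libraries of pig 1 and 119 to 226 CPM in the 4 libraries of pig 2. For a part of the results, values without this library are also given.

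Cells were kept with at least 1250 UMIs, at least 550 genes and at most 12.5% mitochondrial UMIs, which left 48629 cells, between 3776 in non-PP of pig 2 and 7704 in whole ileum of pig 2, from libraries of 21134542 to 40111934 UMIs. Pairs of libraries shared 21 to 80 barcodes of kept cells. A cell with at least 1 CD3E UMI was called CD3E-positive (22584 cells) and the others CD3E-negative (26045 cells). Cells were then ranged by the share of their UMIs that came from JCHAIN, as JCHAIN-low below 0.1%, JCHAIN-mid from 0.1% to under 1%, and JCHAIN-high from 1%. JCHAIN set these ranges, so its own difference between them is not a result. Levels are CPM of the UMIs summed over the cells of a group in a pig. CPM were taken per UMI and not per transcript length, and compare 1 gene across groups. Tests used edgeR's quasi-likelihood fit on those sums, with adjusted p-values (Benjamini-Hochberg) over all genes tested, and a gene was called below 0.05.

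All 3 factors were higher in ileal CD3E-negative cells rich in JCHAIN than in those with little of it, and by similar amounts. XBP1 was at 609 CPM in pig 1 and 534 CPM in pig 2 in the 146 and 245 JCHAIN-high cells, against 103 and 92.7 CPM in the 7072 and 9478 JCHAIN-low cells. PRDM1 was at 103 and 66.7 CPM against 14.5 and 18.3 CPM, and IRF4 at 78.3 and 48.1 CPM against 13.1 and 13.3 CPM. Both pigs lay above both pigs of the other range for each factor. In edgeR's fit the log2 difference was 3.58 ± 0.21 for PRDM1 (SE, adjusted p = 6.01e-09), 3.78 ± 0.25 for XBP1 (adjusted p = 1.80e-08) and 3.46 ± 0.36 for IRF4 (adjusted p = 2.78e-06). These are 11.9-fold, 13.8-fold and 11-fold changes, with 95% confidence intervals of 8.79 to 16.2, 9.56 to 19.8 and 6.51 to 18.6. Of all 9523 genes tested, 13.5% were called higher, against 3 of the 3 factors. The study had already reported JCHAIN and these 3 factors as elevated in its ileal antibody-secreting cells, so the calls describe a known pattern.

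The fitted differences exceed the ratios of the CPM because JCHAIN and genes without a symbol, among them the immunoglobulin genes, take a large part of the RNA of these cells. Genes with a symbol other than JCHAIN held 42.9% and 39.0% of the UMIs of the JCHAIN-high cells, against 85.8% and 85.9% in the JCHAIN-low cells, and edgeR's TMM scaling takes this into account. With CPM taken over the UMIs of those genes alone (named-gene CPM), PRDM1 was at 239 and 171 in JCHAIN-high cells against 16.9 and 21.3 in JCHAIN-low cells. XBP1 on the same scale was at 1419 and 1369 against 119 and 108, and IRF4 at 182 and 123 against 15.3 and 15.5. The direction was the same on both scales for each factor.

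Seen per cell, XBP1 was found in nearly every JCHAIN-high cell, and the other factors in fewer. At least 1 XBP1 UMI was found in 92.5% and 93.9% of the CD3E-negative JCHAIN-high cells of the ileum, at least 1 PRDM1 UMI in 54.8% and 35.1%, and at least 1 IRF4 UMI in 37.0% and 28.6%. These cells were deep, with medians of 7906.5 and 7386 UMIs against 2935 and 2887 in JCHAIN-low cells. After thinning each cell to 1250 UMIs, which left out no cell, the shares were 52.7% and 45.7% against 10.6% and 10.3% for XBP1, 13.7% and 8.98% against 1.70% and 2.31% for PRDM1, and 9.59% and 7.35% against 1.65% and 1.60% for IRF4. At equal depth each factor was thus still found in a larger share of the JCHAIN-high cells of either pig. Of 391 such cells, 57 (14.6%, exact binomial 95% interval 11.2 to 18.5) held UMIs of all 3 factors and 15 (3.84%, 2.16 to 6.25) held none, where 70.5% of the JCHAIN-low cells held none. These counts are at unequal depth. After thinning to 1250 UMIs, 41.2% of the JCHAIN-high and 86.5% of the JCHAIN-low cells held none, and 1 of the 391 held all 3. In resting B-like cells of the blood, as a class low in PRDM1, 0.394% and 0.723% of cells held a PRDM1 UMI at medians of 3206 and 4225 UMIs. Intervals cover counting error only.

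The other genes of the secretory program moved with the factors. Their lists were chosen with earlier results of these data known, so the counts are a description and not independent support. Of 15 tested genes of antibody-secreting cells, 15 were higher in ileal CD3E-negative JCHAIN-high cells, with a median log2 difference of 3.21 against -0.12 over all genes. They included TNFRSF17 (BCMA, a survival receptor of plasma cells, 8.98), CCR10 (the receptor that guides IgA plasma cells to mucosa, 8.27), TXNDC5 (an ER disulfide isomerase, 6.03) and PRDX4 (an ER peroxiredoxin, 5.26). Of 28 tested genes of the unfolded protein response and ER export, 27 were higher, with a median of 3.17. Among these were DNAJB9 (an ER cochaperone and target of XBP1, 4.01), SPCS2 (a subunit of the signal peptidase, 3.67), SSR4 (a subunit of the translocon-associated complex, 3.45) and SEC61B (a subunit of the translocon, 2.82). Of 22 tested genes of the B cell program, 17 were lower and 1 was higher, with a median of -1.55. PAX5, which holds B cell identity and is repressed by BLIMP1, differed by -2.31, SPIB by -2.40, BCL11A by -2.32 and MS4A1 (CD20) by -2.07, and the 1 higher gene was CD79A (1.61), a chain of the B cell receptor that plasma cells can retain. The JCHAIN-low cells they were compared with were mixed. By the gates described further on, 33.7% and 39.2% were cycling B-like, 9.67% and 12.4% ILC-like, and 26.0% and 22.1% fell into no gate.

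The size of the PRDM1 difference depended on the pig, at 3.91 when pig 2 was left out and 3.21 when pig 1 was left out. Without the whole ileum of pig 1 all 3 factors were still called, at 3.64 for PRDM1, 3.69 for XBP1 and 3.50 for IRF4, and so were they in the CD3E-positive cells described further on, at 2.28, 3.16 and 3.26.

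The factors did not follow JCHAIN evenly. Along 7 bins of JCHAIN share in ileal CD3E-negative cells, each factor was low up to a share of 0.3% and high from there on. These shares count all JCHAIN UMIs of a cell, free RNA included. In PP barcodes that hold free RNA and no cell, JCHAIN was at 3534 CPM in pig 1 and 4554 CPM in pig 2. In such barcodes it was at 3985 and 5499 CPM in whole ileum, and at 519 and 1107 CPM in non-PP. The part of free RNA in the JCHAIN shares, and in where along them the factors rise, was not tested. XBP1 was at 150 CPM in pig 1 and 143 CPM in pig 2 in cells with 0.1% to under 0.3% JCHAIN (780 and 1339 cells), and at 586 and 583 CPM in those with 0.3% to under 1% (72 and 137 cells). PRDM1 went from 21.8 and 22.3 CPM to 101 and 93.6 CPM, and IRF4 from 22.7 and 30.3 CPM to 97.7 and 86.4 CPM. The pigs of the 2 bins did not overlap for any factor. This step was called for 3 of 3 factors, with log2 differences of 2.61 ± 0.29 for PRDM1 (edgeR, adjusted p = 7.79e-05), 2.47 ± 0.15 for XBP1 (adjusted p = 6.15e-07) and 2.25 ± 0.32 for IRF4 (adjusted p = 0.000584), where 8.30% of 7251 genes were called in either direction. Over the same step 14 of 15 genes of antibody-secreting cells and 24 of 28 genes of the unfolded protein response and ER export rose, led by PRDX4 (2.73) and HSP90B1 (an ER chaperone, 2.77), while 10 of 21 genes of the B cell program fell, SPIB (a transcription factor of B cells, -1.56) among them, and CD79A rose (1.41).

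**Figure D1:**
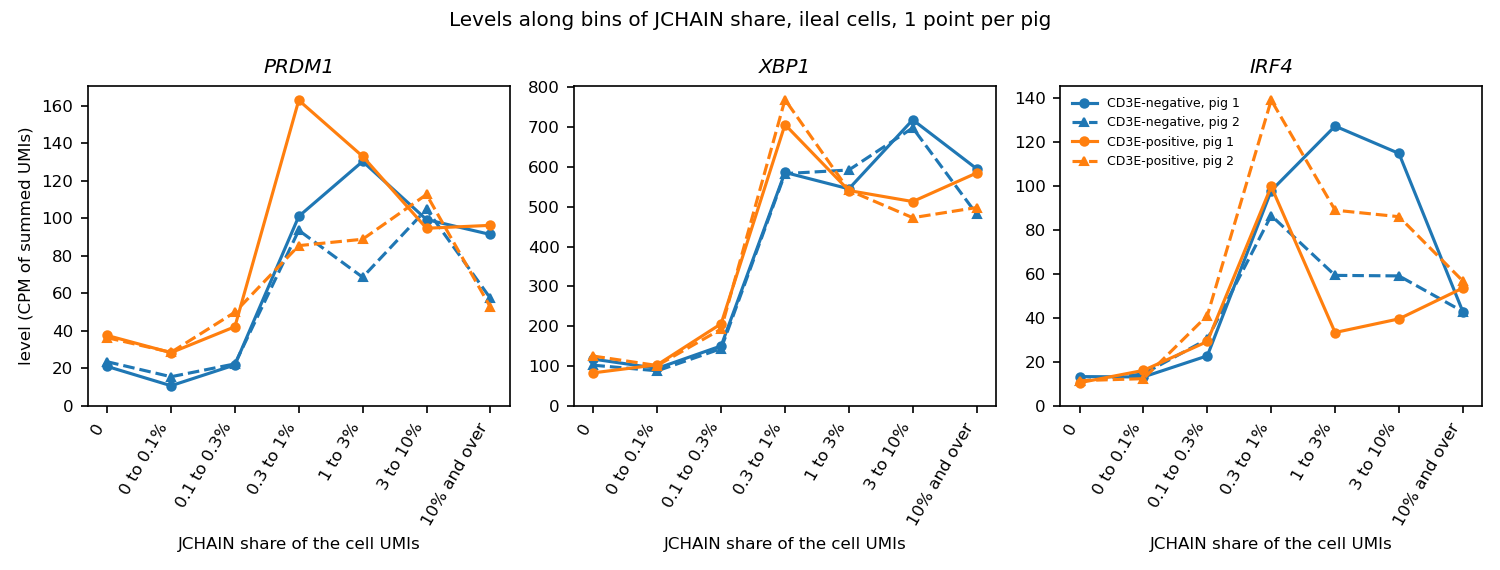
Level of PRDM1, XBP1 and IRF4 (y axes, CPM of summed UMIs) in 7 bins of JCHAIN share of a cell's UMIs (x axes) for CD3E-negative (blue) and CD3E-positive (orange) ileal cells, with 1 point per pig (circles and solid lines for pig 1, triangles and dashed lines for pig 2). Each factor steps up between 0.1 to 0.3% and 0.3 to 1% in both classes, and PRDM1 starts higher in CD3E-positive cells, at 37.5 and 36.3 CPM against 21.0 and 23.5 CPM in cells without JCHAIN.

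The step just before it was smaller. From above 0 to under 0.1% JCHAIN to 0.1% to under 0.3%, XBP1 was higher by 0.78 ± 0.14 (edgeR, adjusted p = 0.0128), and the differences of 0.84 ± 0.25 for PRDM1 (adjusted p = 0.10) and 1.04 ± 0.27 for IRF4 (adjusted p = 0.0646) were not called, so that 1 of 3 factors was called where 2.84% of all genes were. In the paired fit, with the pig as a replicate block, both were called, at 0.83 for PRDM1 (adjusted p = 0.0219) and 1.06 for IRF4 (adjusted p = 0.00391). Without the whole ileum of pig 1 the XBP1 call was lost, at 0.62 (adjusted p = 0.25).

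Between cells with no JCHAIN UMI and those with a share above 0 to under 0.1%, none of the 3 factors was called in edgeR's fit, where 3.12% of all genes were. PRDM1 was at 21.0 and 23.5 CPM in cells without JCHAIN and at 10.7 and 15.5 CPM in the next bin, a log2 difference of -0.76 ± 0.23 (adjusted p = 0.125), and both pigs without JCHAIN lay above both pigs of the next bin. PRDM1 was the 1 factor with an unadjusted p below 0.05 (0.00615), DESeq2 called it (adjusted p = 0.0248), and so did the paired fit with the replicate block (-0.75, adjusted p = 0.0107). Cells without a JCHAIN UMI were shallower, with medians of 2441 and 2476 UMIs against 3568 and 3332.

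Above 0.3% JCHAIN, XBP1 was the 1 factor with a further called difference. None of the 3 factors was called between 0.3 to 1% and 1 to 3% (0.524% of all genes called, no unadjusted p below 0.05 among the factors, none called by DESeq2) or between 1 to 3% and 3 to 10% (0.0690% of all genes called, with an unadjusted p of 0.0487 for XBP1 and none called by DESeq2). From 3 to 10% to 10% and over, 1 of 3 was called, XBP1 at 0.62 ± 0.14 (edgeR, adjusted p = 0.0483, with 1.74% of all genes called), and this call was lost without the whole ileum of pig 1 (0.50, adjusted p = 0.393) and without the filter on low counts (0.58, adjusted p = 0.129). Between 0.3 to 1% and 10% and over, XBP1 was higher by 0.97 ± 0.14 (edgeR, adjusted p = 0.000919), PRDM1 differed by 0.68 ± 0.28 (adjusted p = 0.175) and IRF4 by 0.02 ± 0.33 (95% interval -0.69 to 0.73), where 8.18% of all genes were called. In CPM of all UMIs, XBP1 was at 586 and 583 in the 0.3 to 1% bin and at 596 and 482 in the highest bin, in which genes with a symbol other than JCHAIN held 31.0% and 30.1% of the UMIs against 58.7% and 62.6%. In named-gene CPM, XBP1 was at 999 and 931 in the 0.3 to 1% bin and at 1923 and 1600 in the highest, and IRF4 at 166 and 138 and at 138 and 142. The called difference of XBP1 is thus one relative to the other genes with a symbol. In the same comparison 9 of 15 genes of antibody-secreting cells and 20 of 28 of the unfolded protein response and ER export were higher, and 13 of 21 of the B cell program were lower.

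Cells carrying both a CD3E UMI and much JCHAIN had the same 3 factors. Ileal CD3E-positive JCHAIN-high cells numbered 60 in pig 1 and 65 in pig 2, and held XBP1 at 558 and 499 CPM against 89.9 and 115 CPM in CD3E-positive JCHAIN-low cells. PRDM1 was at 104 and 80.8 CPM against 34.2 and 33.1 CPM, and IRF4 at 45.5 and 73.6 CPM against 12.5 and 11.8 CPM, with no overlap between ranges. The log2 differences were 2.30 ± 0.22 for PRDM1 (edgeR, adjusted p = 1.63e-06), 3.21 ± 0.24 for XBP1 (adjusted p = 1.48e-07) and 3.14 ± 0.40 for IRF4 (adjusted p = 4.85e-05), so that 3 of 3 were called higher where 7.53% of all genes were. Of the listed genes, 14 of 15 of antibody-secreting cells (TNFRSF17 9.14) and 27 of 28 of the unfolded protein response and ER export (PDIA4, an ER disulfide isomerase, 3.84) rose. In the B cell program 4 of 22 rose (CD79A 3.15) and 2 fell (ETS1 -1.82), and among partners and targets of IRF4 and PRDM1 in T cells 1 of 25 rose and 10 fell (ID2 -1.83, CTLA4 -2.42).

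Little of the T cell program was measured in these cells. Over all 8 libraries, 140 of 613 JCHAIN-high cells carried a CD3E UMI, 91 of them exactly 1, and in 81 of the 140 neither CD3D nor CD3G was found. The summed level of 8 T cell genes was 643 and 680 CPM in the ileal CD3E-positive JCHAIN-high cells, with 8 of 8 detected, against 4868 and 4848 CPM in CD3E-positive JCHAIN-low cells and 83.9 and 101 CPM in CD3E-negative JCHAIN-high cells, in which 7 of 8 were detected and CD3E was at 0 by the rule. Over all JCHAIN-high cells of a library CD3E was at 14.7 to 111 CPM, below its 301 to 1014 CPM in barcodes of 1 to 100 UMIs, which hold free RNA and no cell. Of the 140 cells, 4 had a doublet score above 0.25, a cut that 25.6% to 50.3% of simulated doublets passed in each library. The part of free RNA and of doublets in the CD3E UMIs of these cells was not tested.

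Set directly against each other, the CD3E-negative and CD3E-positive JCHAIN-high cells of the ileum gave no call for the factors. CD3E-negative minus CD3E-positive, the log2 difference was 0.15 for PRDM1 (95% interval -0.31 to 0.61), 0.41 for XBP1 (-0.07 to 0.89) and 0.35 for IRF4 (-0.48 to 1.18). In edgeR's fit 0 of 3 were called, 0 of 3 had an unadjusted p below 0.05, DESeq2 called 0 of 3, and 0.137% of all genes were called. None of the tested genes of the 4 lists (15, 28, 22 and 25 genes) was called either. The intervals leave room for differences of up to 1.52-fold for PRDM1, 1.86-fold for XBP1 and 2.27-fold for IRF4.

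The rise of PRDM1 with JCHAIN was larger in CD3E-negative than in CD3E-positive cells. The test of the difference between both rises gave 1.28 ± 0.28 for PRDM1 (edgeR, adjusted p = 0.0365), 0.57 ± 0.32 for XBP1 (adjusted p = 0.473) and 0.32 ± 0.50 for IRF4 (adjusted p = 0.867), so 1 of 3 was called higher where 1.08% of all genes were. The 2 classes differed in PRDM1 at the low end of JCHAIN, at 34.2 and 33.1 CPM in CD3E-positive JCHAIN-low cells against 14.5 and 18.3 CPM in CD3E-negative ones, and overlapped at the high end. The call was lost without the whole ileum of pig 1 (1.35, adjusted p = 0.10) and with sums per library in place of sums per pig (0.77, adjusted p = 0.799).

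**Figure D2:**
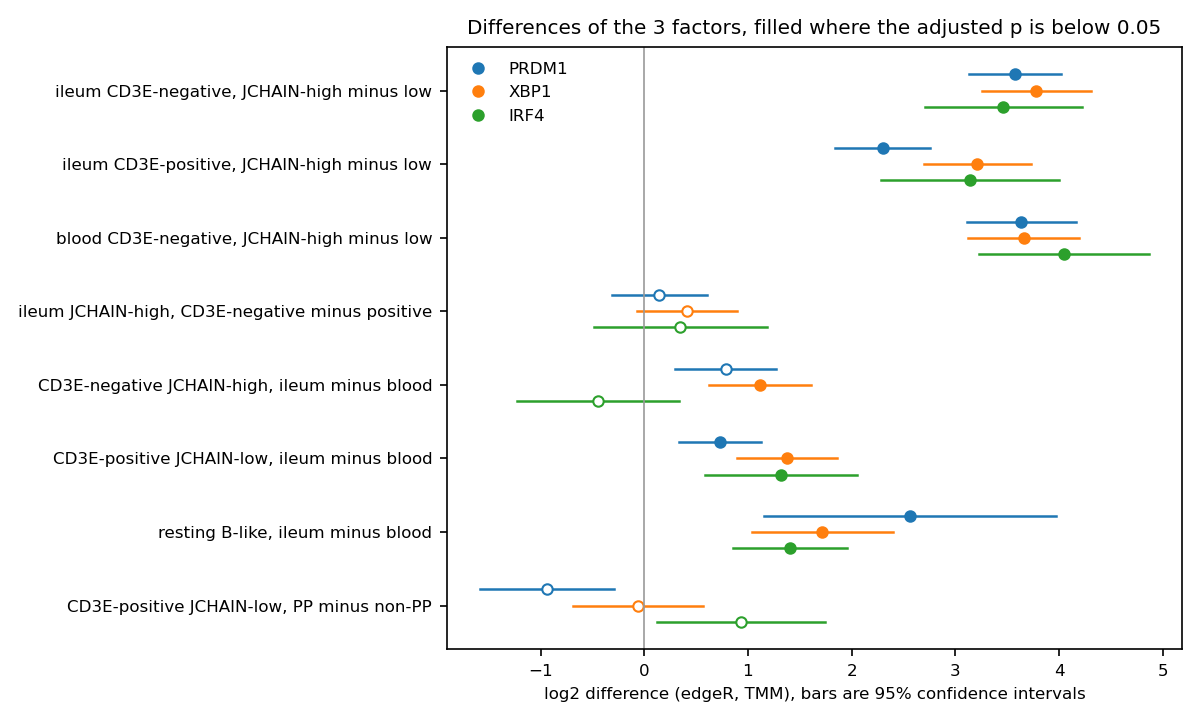
Log2 differences (x axis, edgeR with TMM scaling) of PRDM1 (blue), XBP1 (orange) and IRF4 (green) in 8 comparisons (y axis), with 95% confidence intervals as bars and filled points where the adjusted p is below 0.05. All 9 differences between JCHAIN-high and JCHAIN-low cells are filled and lie between 2.30 and 4.05, while the 3 differences between CD3E-negative and CD3E-positive JCHAIN-high cells are open and between 0.15 and 0.41.

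Blood held fewer JCHAIN-high cells, and all 3 factors were higher in them than in JCHAIN-low cells. The 36 and 46 CD3E-negative JCHAIN-high cells of the PBMCs held IRF4 at 156 and 157 CPM, against 15.1 and 7.50 CPM in JCHAIN-low cells. XBP1 was at 479 and 500 CPM against 34.9 and 55.7 CPM, and PRDM1 at 93.7 and 86.4 CPM against 7.68 and 9.14 CPM. Both pigs of the higher range lay above both of the lower range each time. The log2 differences were 4.05 ± 0.38 for IRF4 (edgeR, adjusted p = 1.69e-06), 3.66 ± 0.25 for XBP1 (adjusted p = 6.12e-08) and 3.64 ± 0.25 for PRDM1 (adjusted p = 5.64e-08), with 3 of 3 called higher where 10.8% of all genes were. All 3 factors were found together in 27 of the 82 cells (32.9%, exact binomial 95% interval 22.9 to 44.2), and after thinning to 1250 UMIs in 0 of 82 (upper bound of the same interval 4.40%). Of the listed genes, 14 of 15 of antibody-secreting cells and 25 of 28 of the unfolded protein response and ER export rose, and 12 of 22 of the B cell program fell, with medians of 3.24, 2.67 and -1.52 against -0.21 over all genes. The CD3E-positive JCHAIN-high cells of the blood numbered 10 and 5 and were not tested. Their levels were 112 and 80.4 CPM for PRDM1, 591 and 885 CPM for XBP1 and 194 and 268 CPM for IRF4.

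Between ileal and blood CD3E-negative JCHAIN-high cells, XBP1 was higher in the ileum relative to the other genes. Its level was 609 and 534 CPM in the ileum against 479 and 500 CPM in blood, and 1419 and 1369 against 677 and 689 in named-gene CPM. On both scales both ileal values lay above both blood values. The log2 difference was 1.12 ± 0.23 (edgeR, adjusted p = 0.00775). PRDM1 differed by 0.79 ± 0.23 (adjusted p = 0.0502), which missed the threshold and passed it in the paired fit with the replicate block (0.78, adjusted p = 0.0466) and in DESeq2 (adjusted p = 0.0389). The scales disagree for PRDM1, since the 103 and 66.7 CPM of the ileum lay on either side of the 93.7 and 86.4 CPM of blood, while in named-gene CPM the 239 and 171 of the ileum lay above 132 and 119. IRF4 was lower in the ileum in CPM (78.3 and 48.1 against 156 and 157), and in named-gene CPM 182 and 123 stood against 221 and 216, with a log2 difference of -0.45 ± 0.37 (adjusted p = 0.539, 95% interval -1.23 to 0.34). Of the 3 factors 1 was called higher, where 5.20% of all genes were. With sums per library the XBP1 call was lost (1.01, adjusted p = 0.118). The JCHAIN-high range has no upper limit, and JCHAIN itself was higher in its ileal than in its blood cells (log2 difference 2.86, edgeR). The part of this in the differences between these cells, of the factors and of other genes, was not tested.

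The JCHAIN-high cells of the ileum also carried more of the ER genes and of some genes of the B cell program. Of 28 genes of the unfolded protein response and ER export, 10 were higher in ileal than in blood CD3E-negative JCHAIN-high cells and none was lower, led by HERPUD1 (a factor of ER-associated degradation, 2.49) and ATF4 (the transcription factor of the integrated stress response, 1.94). Of 15 genes of antibody-secreting cells 6 were higher and 1 lower, led by PRDX4 (1.5) and CCR10 (2.66). Of 25 partners and targets of IRF4 and PRDM1 in T cells, 3 were higher and 3 lower, with a median of 1.58 against 0.19 over all genes. Among them ID2 (an inhibitor of E proteins, 3.17) was higher, and KLF2 (-2.84) and S1PR1 (-3.07), which act in lymphocyte circulation, were lower. Genes of the B cell program were also called higher, led by CD79A (2.65), IRF8 (1.54), MS4A1 (2.15) and CD79B (1.15), and no gene of that list was called lower. The summed level of the 4 B cell genes (CD79A and MS4A1 among them) was 478 and 393 CPM in the ileum and 305 and 287 CPM in blood, with 4 of 4 detected in each pig.

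PP and non-PP could not be compared in these cells, because non-PP tissue held 5 and 17 CD3E-negative JCHAIN-high cells, below the minimum of 20 per sum. In PP (88 and 96 cells) PRDM1 was at 111 and 69.3 CPM, XBP1 at 624 and 567 CPM and IRF4 at 102 and 49.3 CPM. In whole ileum (53 and 132 cells) PRDM1 was at 82.2 and 67.9 CPM, XBP1 at 598 and 500 CPM and IRF4 at 42.2 and 49.4 CPM. In the few non-PP cells PRDM1 was at 147 and 46.0 CPM, XBP1 at 524 and 605 CPM and IRF4 at 65.5 and 32.9 CPM. The ranges of the dissections overlapped for PRDM1 and XBP1, and for IRF4 pig 1 of PP was the highest value.

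Across cell types the factors were not alike. Gates on a few marker genes, each named "-like", sorted the cells into 18 classes, with 19070 cells in no gate and 140 in several. They were set on UMIs of single genes, so that a cell whose marker was missed by chance falls out. Of these gates, 2 hold the CD3E-negative JCHAIN-high cells and 3 hold B-like cells under 1% JCHAIN, while the T-like gates do not use JCHAIN. Gates of the ileum or blood that held at least 20 cells in both pigs gave 28 levels of gate and tissue. Levels next to each other in the order of a factor were compared. That order keeps their differences small by construction, so few calls do not show that gates are alike. Other genes are not ordered by their own levels in these pairs, so their share called is not a like background.

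PRDM1 was highest in the JCHAIN-high gates, followed by ILC-like, monocyte or macrophage-like and T-like gates of the ileum. Neighbors among these later gates were not called apart, and they lie close by the ordering itself. It was at 112 and 78.7 CPM in ileal JCHAIN-high cells with at least 3 UMIs of the B cell genes and at 91.9 and 58.1 CPM in those with fewer. ILC-like cells of the ileum followed with 58.8 and 65.0 CPM, monocyte or macrophage-like cells with 50.3 and 71.8 CPM, CD4 T-like cells with PDCD1 or CXCR5 with 38.5 and 59.6 CPM, CD4 T-like cells without PDCD1 or CXCR5 with 48.0 and 47.0 CPM, and CD8 T-like cells with 44.6 and 49.1 CPM. Epithelial-like cells (30.6 and 56.6 CPM) and goblet-like cells (42.6 and 25.6 CPM) lay in the same range. B-like cells under 1% JCHAIN lay at the bottom of the ileal gates, at 6.49 and 10.8 CPM in ileal cycling B-like cells and at 5.70 and 9.77 CPM in ileal resting B-like cells (not cycling, gated on CCR7 and other markers of resting cells). Ordered by its own level, PRDM1 was called in 1 of 27 neighboring pairs. This pair was ileal JCHAIN-high cells with under 3 B cell UMIs over ileal ILC-like cells (1.47 ± 0.34, edgeR, adjusted p = 0.00117). Over the same 27 pairs 20.7% of all genes, which were not ordered by their own levels, were called.

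XBP1 was highest in JCHAIN-high cells and then in other secretory cells. It was at 646 and 589 CPM in ileal JCHAIN-high cells with at least 3 B cell UMIs, at 357 and 421 CPM in goblet-like cells, which secrete mucin, and at 324 and 263 CPM in mast-like cells, which store mediators in granules. In the other lymphocyte gates of the ileum it lay between 66.1 CPM (cycling B-like cells of pig 1) and 188 CPM (CD4 T-like cells without PDCD1 or CXCR5, of pig 2), and in those of the blood between 24.4 and 72.0 CPM. Of 27 pairs neighboring in the order of XBP1, 1 was called for it. This was ileal JCHAIN-high cells with under 3 B cell UMIs over goblet-like cells (1.62 ± 0.32, edgeR, adjusted p = 0.000114). Over these pairs 17.2% of all genes, which were not ordered by their own levels, were called.

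IRF4 was highest in gates of the B lineage. It was at 164 and 176 CPM in blood JCHAIN-high cells with under 3 B cell UMIs and at 91.8 and 56.0 CPM in ileal ones with at least 3. Resting B-like cells of the ileum (55.1 and 50.8 CPM) and ileal JCHAIN-high cells with under 3 B cell UMIs (54.7 and 42.4 CPM) came next. Cycling B-like cells of the blood had 32.4 and 21.1 CPM, resting B-like cells of the blood 22.2 and 19.0 CPM and ileal CCR7 T-like cells 24.9 and 24.4 CPM. In 202 epithelial-like cells of the ileum no IRF4 UMI was found, which allows a level of up to 1.42 CPM, and goblet-like cells had 1 UMI in each pig. Of 27 pairs neighboring in the order of IRF4, 3 were called for it. Over these pairs 19.8% of all genes, which were not ordered by their own levels, were called. Ileal JCHAIN-high cells with at least 3 B cell UMIs were above ileal resting B-like cells (1.1 ± 0.26, edgeR, adjusted p = 0.00198), and those with fewer were above cycling B-like cells of the blood (1.94 ± 0.31, adjusted p = 1.09e-05). For the pair between them the scales disagree, because resting B-like cells of the ileum had more IRF4 in CPM (55.1 and 50.8 against 54.7 and 42.4) and less in the TMM-scaled fit (-0.82 ± 0.28, adjusted p = 0.0362).

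**Figure D3:**
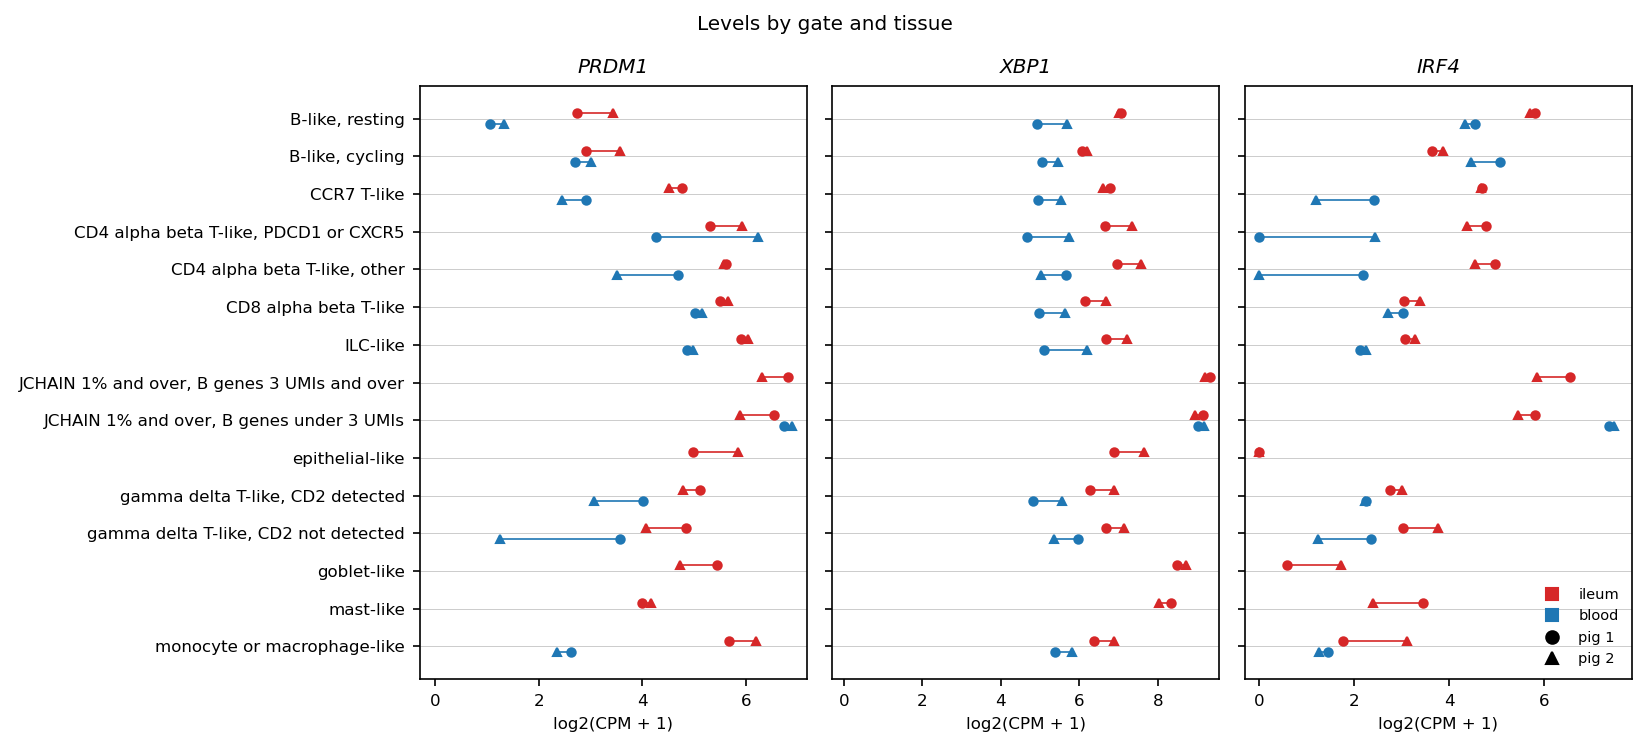
Level of PRDM1, XBP1 and IRF4 (x axes, log2 of CPM plus 1) by gate (y axis) of ileum (red) and blood (blue), with 1 point per pig (circles pig 1, triangles pig 2) joined by a line, for gates with at least 20 cells in both pigs, 1 B-like gate not shown. XBP1 lies to the right in JCHAIN-high, goblet-like and mast-like cells, IRF4 in JCHAIN-high and resting B-like cells and at 0 in epithelial-like cells, and PRDM1 is low in B-like cells.

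Splitting the ileal JCHAIN-high cells by their B cell genes did not separate the factors. Cells with under 3 UMIs of the 4 B cell genes minus those with 3 or more gave -0.06 for PRDM1 (95% interval -0.76 to 0.64), 0.12 for XBP1 (-0.51 to 0.74) and -0.28 for IRF4 (-0.87 to 0.31). In edgeR's fit 0 of 3 were called and 0 of 3 had an unadjusted p below 0.05, DESeq2 called 0 of 3, and 0.0584% of all genes were called.

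Over the 28 levels the factors kept different company. As a description, Pearson's r of log2(CPM + 1) across levels was 0.62 between PRDM1 and XBP1, 0.49 between XBP1 and IRF4 and 0.17 between PRDM1 and IRF4. Of 9482 named genes, those most like XBP1 were DNAJB9 (0.96), MANF (0.90), YIPF2 (0.90), SRPRA (0.88) and PDIA4 (0.87), and those most like PRDM1 were SDF2L1 (0.91), DNAJC3 (0.88), HYOU1 (0.86), SURF4 (0.83) and DNAJB11 (0.80). Most of these act in the ER or at its membrane, as chaperones, cochaperones or parts of the export path. Those most like IRF4 were MZB1 (an ER cochaperone of B lineage cells, 0.82), JCHAIN (0.81), EGFL8 (0.77), POU2AF1 (a coactivator of octamer factors in B cells, 0.75) and EAF2 (0.73). Levels of a tissue share libraries, and the JCHAIN-high gates are the 3 highest levels of PRDM1 and XBP1 and 3 of the 4 highest of IRF4. JCHAIN set these gates, so its own r with IRF4 is not a result.

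Resting B-like cells, gated on CCR7 and other markers of resting cells and not cycling, had more of all 3 factors in the ileum than in blood. IRF4 was at 55.1 and 50.8 CPM in ileal cells (740 and 682 cells) against 22.2 and 19.0 CPM in blood (507 and 415 cells), a log2 difference of 1.40 ± 0.27 (edgeR, adjusted p = 0.000332). XBP1 was at 132 and 127 CPM against 29.3 and 50.9 CPM, 1.72 ± 0.33 (adjusted p = 0.000349). PRDM1 was at 5.70 and 9.77 CPM against 1.08 and 1.5 CPM, 2.56 ± 0.69 (adjusted p = 0.0109). Both ileal pigs lay above both blood pigs each time, and 3 of 3 were called higher where 7.24% of all genes were. Of 28 genes of the unfolded protein response and ER export, 14 were higher and none was lower. Without the whole ileum of pig 1 the 3 factors were called at 2.63 for PRDM1, 1.79 for XBP1 and 1.52 for IRF4. The ileal gate held more JCHAIN-mid cells (58 of 740 and 107 of 682) than the blood gate (8 of 507 and 14 of 415). The part of these cells in the differences was not tested. In barcodes holding free RNA and no cell, XBP1 was at 101 to 139 CPM in ileal and 35.9 and 53.9 CPM in blood libraries. PRDM1 was there at 20.4 to 51.2 CPM and 15.3 and 15.4 CPM, above the gated cells of either tissue. IRF4 was there at 4.16 to 18.5 CPM and 9.75 and 5.93 CPM, below the gated cells. The part of free RNA in the differences of this gate was not tested. For PRDM1 the call rests on 32 UMIs against 5, a ratio of CPM of 5.93 with an exact interval of 2.29 to 19.5 for counting error.

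T cells with little JCHAIN had more of the 3 factors in the ileum than in blood. In CD3E-positive JCHAIN-low cells PRDM1 was at 34.2 and 33.1 CPM in the ileum against 20.4 and 19.4 CPM in blood, XBP1 at 89.9 and 115 CPM against 32.0 and 45.5 CPM, and IRF4 at 12.5 and 11.8 CPM against 5.95 and 3.54 CPM. No value of the ileum overlapped one of the blood. Tissue and way of isolation cannot be told apart here. The log2 differences were 0.73 ± 0.19 for PRDM1 (edgeR, adjusted p = 0.00965), 1.38 ± 0.23 for XBP1 (adjusted p = 0.000399) and 1.32 ± 0.34 for IRF4 (adjusted p = 0.0115). All 3 were called higher, where 12.5% of all genes were. Without the whole ileum of pig 1 all 3 calls held, at 0.76 for PRDM1, 1.36 for XBP1 and 1.31 for IRF4. With sums per library in place of sums per pig, the calls of PRDM1 (0.72, edgeR, adjusted p = 0.472) and IRF4 (1.33, adjusted p = 0.0573) were lost.

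Beside these differences stand the levels of free RNA and of B cell genes. In barcodes of 1 to 100 UMIs, XBP1 was at 101 to 139 CPM in ileal and 35.9 and 53.9 CPM in blood libraries, PRDM1 at 20.4 to 51.2 and 15.3 and 15.4 CPM, and IRF4 at 4.16 to 18.5 and 9.75 and 5.93 CPM, about the levels of the T cells themselves. If all JCHAIN UMIs of CD3E-positive cells with under 1% JCHAIN were free RNA, and had the make-up of those barcodes, it would make 4.61% to 10.5% of their UMIs, and with it at most 3.17 CPM of PRDM1, 9.03 CPM of XBP1 and 1.14 CPM of IRF4. The same limit taken from the 4 B cell genes is wider, at 28.5% to 64.8% of their UMIs. The 4 B cell genes, with 4 of 4 detected in each group, summed to 313 and 377 CPM in the ileal and 112 and 102 CPM in the blood CD3E-positive JCHAIN-low cells. Among CD3E-positive JCHAIN-low cells without any UMI of the 4 B cell genes, the differences between ileum and blood were 0.95 for PRDM1 (edgeR, adjusted p = 0.00339), 1.44 for XBP1 (adjusted p = 0.000513) and 1.48 for IRF4 (adjusted p = 0.0106).

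Of the listed partners and targets of IRF4 and PRDM1 in T cells, 9 of 25 were higher and 10 lower in ileal CD3E-positive JCHAIN-low cells. KLF2 was lower (-3.83), and CTLA4 (an inhibitory receptor, 2.97), BATF3 (a partner of IRF proteins, 3.10) and BCL6 (the factor of follicular helper T and germinal center B cells, opposed by BLIMP1, 2.92) were higher. In the unfolded protein response and ER export 9 of 28 were higher and none was lower, with a median of 0.36 against 0.04 over all genes, led by HSPA5 (the ER chaperone BiP, 2.12) and DDIT3 (1.90). Of the B cell program 13 of 22 were higher, CD83 (an activation marker, 4.04) among them, and of genes of antibody-secreting cells 6 of 15 were higher and 2 lower.

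By gate, XBP1 was the factor called most often between ileum and blood. It was called higher in 7 of 7 T-like and ILC-like gates, PRDM1 in 4 of 7 and IRF4 in 3 of 7. All these gates are without any UMI of the B cell genes by their rule. The XBP1 calls in ILC-like, CD8 T-like and CD4 T-like cells with PDCD1 or CXCR5 were lost without the whole ileum of pig 1. Free RNA, in barcodes that hold no cell, had XBP1 at 101 to 139 CPM in ileal and 35.9 and 53.9 CPM in blood libraries. The part of free RNA in the differences by gate was not tested. In CCR7 T-like cells, which include naive T cells, 3 of 3 factors were called. IRF4 was at 24.9 and 24.4 CPM in the ileum against 4.35 and 1.28 CPM in blood (3.31 ± 0.40, edgeR, adjusted p = 2.47e-07), and PRDM1 at 26.4 and 21.8 CPM against 6.52 and 4.49 CPM (2.20 ± 0.45, adjusted p = 0.000983), where 5.27% of all genes were called higher. In CD4 T-like cells without PDCD1 or CXCR5, 2 of 3 were called (3.00% of all genes), IRF4 at 30.3 and 22.2 CPM against 3.56 and 0 CPM (21 UMIs against 1) and XBP1 at 124 and 188 CPM against 49.8 and 31.3 CPM. In those with PDCD1 or CXCR5, the gate closest to follicular helper cells, 2 of 3 were called (3.19% of all genes), IRF4 and XBP1. PRDM1 there was at 38.5 and 59.6 CPM in the ileum and at 18.3 and 74.6 CPM in blood, with a log2 difference of -0.00 and a 95% interval of -1.03 to 1.02.

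In the CD8, gamma delta and ILC-like gates XBP1 was called higher each time, PRDM1 in both gamma delta gates and in ILC-like cells, and IRF4 in none. In CD8 T-like cells 1 of 3 was called (7.40% of all genes), XBP1 at 70.0 and 101 CPM against 30.5 and 48.8 CPM, and PRDM1 stood at 44.6 and 49.1 CPM against 31.6 and 34.7 CPM (0.50 ± 0.31, edgeR, adjusted p = 0.326). Gamma delta T-like cells with CD2 had 2 of 3 called (6.86% of all genes), PRDM1 at 33.5 and 26.5 CPM against 15.1 and 7.40 CPM among them, and those without CD2 also 2 of 3 (6.46%), PRDM1 at 27.9 and 15.8 CPM against 10.9 and 1.37 CPM. In ILC-like cells, which lack CD3E, 2 of 3 were called (8.20% of all genes), PRDM1 at 58.8 and 65.0 CPM against 28.1 and 30.5 CPM (1.00 ± 0.32, adjusted p = 0.0284) and XBP1 at 102 and 147 CPM against 33.5 and 72.0 CPM (1.14 ± 0.32, adjusted p = 0.0115). Genes of the unfolded protein response and ER export were higher in 16 of 28 cases in ILC-like cells and in 13 of 28 in CCR7 T-like cells, and in 3 to 7 of 28 in the other 5 gates. Without the whole ileum of pig 1, 4 of these calls were lost. They were PRDM1 (0.99, adjusted p = 0.0882) and XBP1 (1.07, adjusted p = 0.0611) in ILC-like cells, and XBP1 in CD8 T-like cells (1.05, adjusted p = 0.0677) and in CD4 T-like cells with PDCD1 or CXCR5 (1.70, adjusted p = 0.0613). The IRF4 call in the latter was lost in DESeq2 (adjusted p = 0.182), and that of PRDM1 in gamma delta T-like cells with CD2 was lost with doublets removed (1.22, adjusted p = 0.0523).

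Within the ileum, PRDM1 was higher in non-PP than in PP T cells by its values, and the test did not call it. In CD3E-positive JCHAIN-low cells PRDM1 was at 26.1 and 23.3 CPM in PP, 30.8 and 28.1 CPM in whole ileum and 45.4 and 46.2 CPM in non-PP, each dissection apart from the others. IRF4 ran the other way, at 17.4 and 12.8 CPM in PP, 13.0 and 14.9 CPM in whole ileum and 7.04 and 8.37 CPM in non-PP, and XBP1 was at 102 and 99.0 CPM in PP, 95.2 and 112 CPM in whole ileum and 72.9 and 132 CPM in non-PP. PP minus non-PP, the log2 difference was -0.94 ± 0.31 for PRDM1 (edgeR, adjusted p = 0.0995), 0.93 ± 0.39 for IRF4 (adjusted p = 0.219) and -0.06 ± 0.30 for XBP1 (adjusted p = 0.967). None of the 3 was called in edgeR's fit, where 4.54% of all genes were, 2 of 3 had an unadjusted p below 0.05 (0.00687 for PRDM1 and 0.0269 for IRF4), and DESeq2 called PRDM1 (-0.98, adjusted p = 0.0113). Without the filter on low counts both PRDM1 (adjusted p = 0.0166) and IRF4 (adjusted p = 0.0474) were called.

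**Figure D4:**
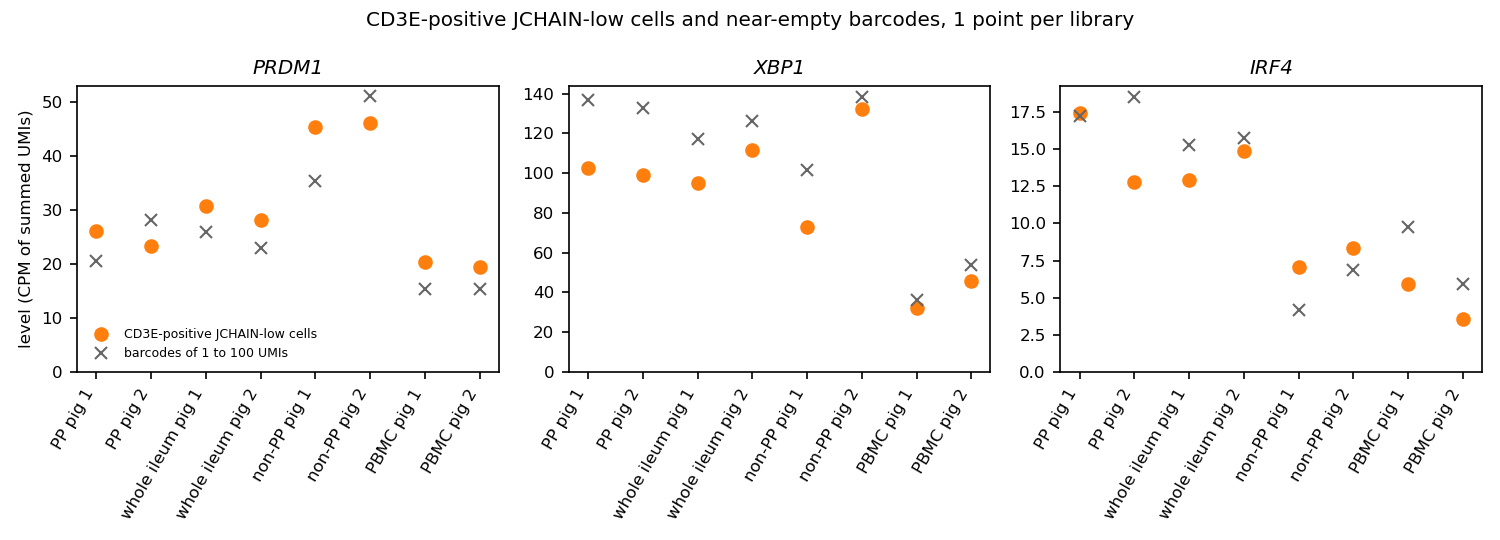
Level of PRDM1, XBP1 and IRF4 (y axes, CPM of summed UMIs) in CD3E-positive JCHAIN-low cells (orange points) and in barcodes of 1 to 100 UMIs (gray crosses) of each of the 8 libraries (x axes). PRDM1 is highest in both non-PP libraries (45.4 and 46.2 CPM), IRF4 is lower there (7.04 and 8.37 CPM) than in PP (17.4 and 12.8 CPM), and the crosses lie near the points. Between PP and non-PP the crosses of PRDM1 and IRF4 run the same ways as the points.

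The make-up of the T cells by gate moved with the dissection. In PP 64.9% and 60.5% of the CD3E-positive JCHAIN-low cells fell into no gate, against 45.1% and 43.0% in non-PP. The T-like gates leave out cells with a UMI of the B cell genes, and the part of this rule in the shares was not tested. CD8 T-like cells were 8.27% and 9.99% of the CD3E-positive JCHAIN-low cells in PP and 19.2% and 20.1% in non-PP, gamma delta T-like cells with CD2 10.5% and 12.5% against 26.6% and 28.0%, and CCR7 T-like cells 7.16% and 7.73% against 0.589% and 1.71%. The 4 B cell genes summed to 582 and 538 CPM in PP and 13.6 and 12.2 CPM in non-PP, and 17 of 22 genes of the B cell program were called higher in PP. Among CD3E-positive cells without any UMI of the 4 B cell genes, the differences were -0.61 for PRDM1 (edgeR, adjusted p = 0.592) and 0.75 for IRF4 (adjusted p = 0.479). Within 6 T-like and ILC-like gates, none of the 18 differences of the factors between PP and non-PP was called in edgeR's fit, where 0.135% of all genes were, 1 of 18 had an unadjusted p below 0.05, and DESeq2 was not run on them. Some PRDM1 values within gates still ran from PP to non-PP, as in ILC-like cells (35.2 and 35.3 CPM against 63.8 and 73.2 CPM, -0.94 ± 0.48, adjusted p = 0.778) and in gamma delta T-like cells with CD2 (18.9 and 22.3 CPM against 40.9 and 31.3 CPM, -0.80 ± 0.42, adjusted p = 1.00), without overlap of the dissections and without a call.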

How the data were processed

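Droplet libraries (10x Genomics 3′ v2 chemistry) were made from the 8 samples, and the 4 sequencing runs of a sample were taken as 1 library. The authors deposited raw UMI counts per gene and barcode, made per the study's methods with Cell Ranger against Sscrofa11.1 and a modified Ensembl annotation (version 4.0.6 in the submitters' processing notes). Their later removal of ambient RNA, poor cells and doublets is not in these counts. Genes carry symbols from the files or, for 977 identifiers, from a gene table, and 7170 of the 25880 genes carry none.

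UMIs were summed per pig (per library for the dissections) and class, range, bin or gate, with at least 20 cells per sum. Sums were tested with edgeR 4.0.16 (filterByExpr, TMM, quasi-likelihood, R 4.3.3), and with DESeq2 1.42.0 as an alternative. The script was tested on simulated data. Same-numbered samples are labeled as coming from the same pig, which the Y-linked genes of the whole ileum of pig 1 go against. Their deviations from group means correlated at 0.0923 to 0.767 (median 0.288, 10 groups, 2642 genes), so paired values are given where they change a call. The sums per pig and the paired fit rest on these labels. The test takes 2 pigs per group as replicates, and an exact permutation test of 2 against 2 cannot go below p = 0.333. Doublet scores (scanpy 1.11.5) put 2.73% to 3.76% of cells per library above 0.25, and these were kept. The precision of each level is limited by the UMIs behind it.

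The 3 factors and the gene lists were chosen with earlier results of these data known. The listed genes named are up to 4 per list with the smallest adjusted p in a comparison, and the genes of like pattern are the 5 with the highest r. The comparisons of JCHAIN ranges in blood, of CD3E classes at high JCHAIN, of the highest bin with the 0.3 to 1% bin and of dissections within gates, and the setting without genes lacking a symbol, were added after seeing the data. A B-like gate and some listed genes are not reported here.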

Additional observations from a re-analysis of the deposited data

Results flagged for a closer look

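The rise of PRDM1 with JCHAIN differed between the classes of ileal cells. It was larger by 1.28 ± 0.28 (log2) in CD3E-negative than in CD3E-positive cells in the test of that difference (edgeR's quasi-likelihood fit, adjusted p = 0.0365, Benjamini-Hochberg over 9523 genes), and both pigs of each class showed the rise. The call held with the replicate block (1.27, adjusted p = 0.0223), in DESeq2 (adjusted p = 0.00120), with JCHAIN and genes without a symbol left out (1.25, adjusted p = 0.0388) and with wider-spaced JCHAIN ranges (1.06, adjusted p = 0.0429). It was lost without the whole ileum of pig 1 (1.35, adjusted p = 0.10) and with sums per library (0.77, adjusted p = 0.799). The classes stood at 14.5 and 18.3 CPM (CD3E-negative) and 34.2 and 33.1 CPM (CD3E-positive) in the JCHAIN-low range, and set directly against each other in the JCHAIN-high range they gave no call for PRDM1. Of the CD3E-negative JCHAIN-low cells 33.7% and 39.2% were cycling B-like. Over all libraries, 91 of 140 CD3E-positive JCHAIN-high cells held exactly 1 CD3E UMI, and in 81 neither CD3D nor CD3G was found. The test of the difference of rises gave 0.57 ± 0.32 for XBP1 (adjusted p = 0.473) and 0.32 ± 0.50 for IRF4 (adjusted p = 0.867).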

How the results depend on the processing

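No difference of the 3 factors changed sign past the threshold under any alternative run. Tested runs were judged by the threshold, and runs without a pig by whether the value moved by more than the spread. Log2 values were recomputed for the JCHAIN ranges and steps, the tissues, the dissections and resting B-like cells. By these rules 328 of them stayed the same, 8 lost their call, 14 gained one and 9 moved with a pig left out. In the T-like, ILC-like and JCHAIN-high gates and the added comparisons 231 stayed the same, 7 lost their call, 3 gained one and 17 moved. Leaving out a pig gives a value with no test, since no residual degrees of freedom remain. It moved PRDM1 in ileal CD3E-negative JCHAIN-high against JCHAIN-low cells between 3.21 and 3.91, XBP1 in PP against non-PP T cells between -0.41 and 0.38, XBP1 in resting B-like cells between 1.35 and 2.27, the step from 0.3 to 1% to 1 to 3% JCHAIN between -0.33 and 0.40 for PRDM1 and -0.43 and 0.41 for IRF4, the next step between -0.34 and 0.58 for PRDM1, and the last between -0.50 and 0.63 for IRF4. Sums per library lost the calls of PRDM1 in the difference of rises (0.77), of PRDM1 (0.72) and IRF4 (1.33) between ileal and blood T cells and of XBP1 between ileal and blood JCHAIN-high cells (1.01). Without the whole ileum of pig 1, PRDM1 in the difference of rises (1.35) and XBP1 in the steps to 0.1 to 0.3% (0.62) and to 10% and over (0.50) were no longer called. DESeq2, no filter on low counts and the replicate block called PRDM1 in the first step (-0.77, -0.73 and -0.75) and PRDM1 (0.83, 0.81 and 0.83) and IRF4 (1.03, 1.02 and 1.06) in the second. DESeq2 (0.72) and the block (0.78) called PRDM1 between ileal and blood JCHAIN-high cells, DESeq2 (-0.98) and no filter (-0.94) called PRDM1 between PP and non-PP, no filter called IRF4 there (0.93), and no filter lost XBP1 in the last step (0.58). The causes were not tested. The block changed no other call.

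Counts over all genes moved more. The difference of rises had 132 genes called, against 345 in DESeq2, 374 without a filter, 215 with the block, 49 without the whole ileum of pig 1 and 23 per library. Ileal against blood T cells had 1849, against 2849 without a filter and 1093 per library, and JCHAIN-high cells 667, against 424 under the stricter CD3E classes and 400 per library. PP against non-PP had 442, against 856 in DESeq2, 1064 without a filter, 104 under the stricter classes and 206 with other JCHAIN ranges. The step to 0.3 to 1% had 602, against 285 without the whole ileum of pig 1. The stricter classes left under 20 CD3E-positive JCHAIN-high cells in a pig, the 3% limit too few such cells in blood, and PP against non-PP in JCHAIN-high cells was not tested for the same reason. Depth limits PRDM1 and IRF4 in small gates most, where a level can rest on 0 to 3 UMIs.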
